A study of Drosophila melanogaster with 2 samples.

Results

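The 10 genes described here encode core parts of the bone morphogenetic protein (BMP) pathway of Drosophila melanogaster: dpp, gbb, sog, tkv, sax, Mad, Med, Dad, shn and brk. They were taken by symbol from a list of pathway genes and set beside all 13945 protein-coding genes of the chromosome arms. Binding of Hmx, a homeodomain transcription factor, was mapped by chromatin immunoprecipitation and sequencing (ChIP-seq) in whole embryos aged 0 to 24 h, of both sexes, of strain Hmx-MiMIC-GFP. In that line an eGFP exon sits in an intron of the Hmx gene, so the embryos make an Hmx-eGFP fusion. The description says that an anti-GFP antibody was used, while the antibody field names Hmx. Replicates 2 and 3, called biological replicates by the labels, form 1 group that carries the tag throughout, and there is no second condition. All cells of an embryo were pooled, so a site may be occupied in few cells or in many. The control alignment was not analysed here, so the values have no untagged counterpart.

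The BMP pathway is a relay from a secreted ligand to the nucleus. Dpp and Gbb bind type I and type II receptor kinases, among them the type I receptors Tkv and Sax, which phosphorylate Mad, and Mad with its partner Med enters the nucleus. Sog, the fly chordin, binds ligand outside the cell. In the nucleus Mad and Med recruit Shn to repress brk, whose product represses genes that Dpp turns on, and Dad is an inhibitory Smad that is itself induced by the pathway. In the fly embryo Dpp is known for patterning the dorsal side, where Sog shapes its distribution.

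The sequences below are the 101 bases centred on 4 summits at these genes, shown because the strongest region of each gene lies there. A summit is the base at which the caller placed a region's maximum. Letters are those of the plus strand of dm6 in the RefSeq genome, and capitals mark a match to a homeodomain or NK-class core site. The windows lie at chr3R:17065096-17065196 in an intron of Dad, chrX:15623003-15623103 in an intron of sog, chrX:7307132-7307232 upstream of brk and chr2L:2433605-2433705 in an intron of dpp. The first 3 belong to the reproducible set described below and the dpp window does not.

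Dad: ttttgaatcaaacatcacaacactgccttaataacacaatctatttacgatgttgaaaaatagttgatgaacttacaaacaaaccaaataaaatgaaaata
sog: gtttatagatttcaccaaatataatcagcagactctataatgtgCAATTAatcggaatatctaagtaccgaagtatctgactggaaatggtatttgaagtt
brk: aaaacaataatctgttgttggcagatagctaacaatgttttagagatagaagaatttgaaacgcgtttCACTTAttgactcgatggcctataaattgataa
dpp: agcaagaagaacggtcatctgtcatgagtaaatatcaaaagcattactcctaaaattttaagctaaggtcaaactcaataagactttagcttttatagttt

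The sog window holds 1 match to TAATTG, read on the minus strand, and the brk window holds 1 match to TAAGTG, also on the minus strand. The Dad and dpp windows hold none of the motifs searched. These were, on both strands, the homeodomain cores TAATTA and TAATTG, the NK-class cores CAAGTG and TAAGTG, the Brinker sites TGGCGCC or TGGCGCT or TGGCGTC or TGGCGTT, the silencer element read by Mad, Med and Shn, GTCTAG from the Smad palindrome, TATCGA from the DRE, GAGAGA for GAGA factor and CAGGTA for Zelda. TAATTA and TAATTG share their first 5 letters and CAAGTG and TAAGTG their last 5. Over the windows of the 10 summits of the reproducible set at the members, TAAGTG was in 2 (1 at brk and 1 at shn), TAATTA in 1 at shn, TAATTG in 1 at sog, and the others in none. Over all 1595 nuclear windows of that set, TAAGTG was in 5.45%, TAATTA in 11.2%, TAATTG in 12.2%, CAAGTG in 4.01%, a Brinker site in 2.45% and the silencer element in 0%. These matches describe letters and not sites of binding. The members' windows had a G+C content of 22.8 to 40.6%, with a median of 31.2%, beside a median of 29.7% over all 1595 windows.

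The files used here are lists of regions deposited by the authors. Reads and alignments were not analysed here, so sequencing depth is unknown. On dm6 there were 30000 regions per replicate, 30000 from both replicates pooled, and 1607 regions that passed the irreproducible discovery rate procedure (the IDR set), 1595 of them on the chromosome arms. The IDR set is the 1607 strongest regions of the pooled list. Each region carries the authors' signal value on the scale of its own list, and rank 1 is the strongest. The other lists hold background as well as peaks.

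Of the 10 BMP genes, 4 had an IDR summit within the gene or up to 1 kb upstream of it, and together they held 10 such summits. Among all protein-coding genes 12.2% had one. Those 4 genes were sog, Dad, shn and brk, which encode an extracellular antagonist, an inhibitory Smad, a cofactor of Mad and Med, and a repressor. Neither ligand gene, neither type I receptor gene and neither of Mad and Med had an IDR summit. Long genes hold summits more often, and the members are long: 3 of the 6 members over 10 kb had an IDR summit, beside 25.3% of all protein-coding genes of that length, and 1 of the 4 shorter members, beside 10% (1199 of 11968). With 10 genes chosen with earlier results of these data known, these counts are descriptions and were not tested.

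**Figure D1:**
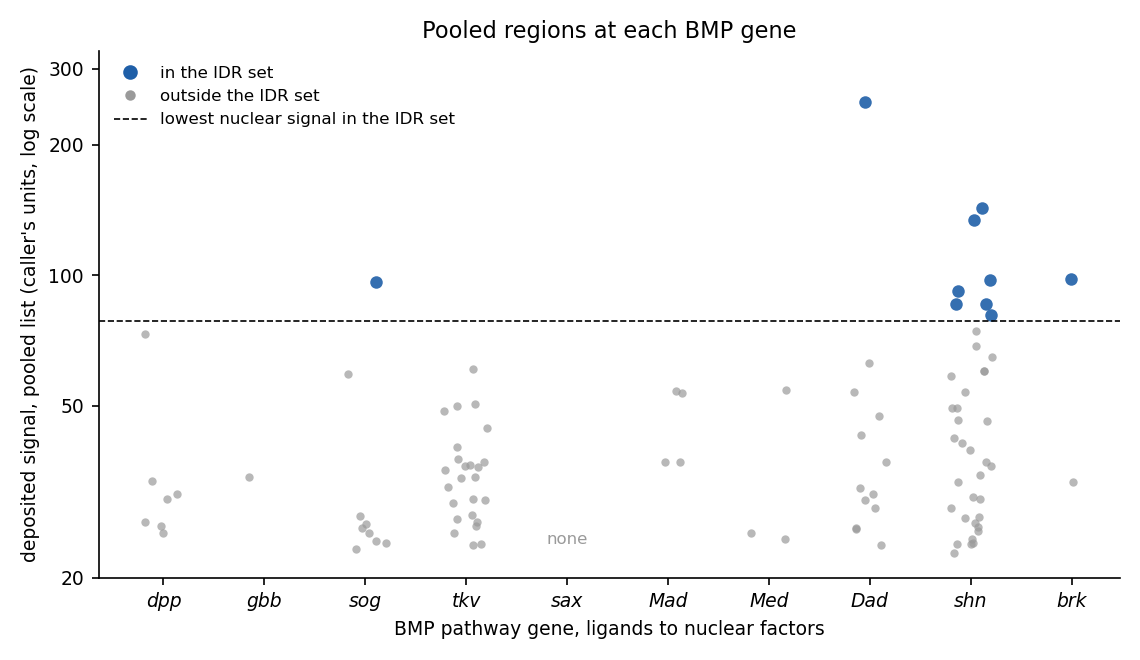
Deposited signal (log scale, caller's units) of every region of the pooled list at each BMP gene, with 1 point per region, spread sideways for visibility. Blue points belong to the IDR set, grey points do not, and the dashed line is the lowest nuclear signal of the IDR set, 78.4. Blue points occur at sog, Dad, shn and brk, the highest at Dad with 251.9, and sax has no region in this list.

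Dad held the strongest region of any member. Dad (FBgn0020493, chr3R:17054007-17070408, plus strand) had a single IDR region at chr3R:17064928-17065363 with a signal of 251.9 and rank 141. Its summit lay in the fifth intron of the longest transcript, 10249 bp downstream of the nearest start of Dad and 7529 bp from the nearest start of any gene, that of Ns1. In replicate 2 the region ranked 141 with a signal of 133.5, and in replicate 3 it ranked 160 with a signal of 110.5. The replicates therefore placed it almost alike, with summits 5 and 18 bp from the pooled summit. The gene held 12 weaker pooled regions, the next strongest in the third intron with a signal of 62.7 and rank 2551. Replicate 2 listed 15 regions at Dad and replicate 3 listed 5. One of those in replicate 2, 984 bp downstream of a Dad start, ranked 1572 with a signal of 44.3, and replicate 3 listed none within 250 bp of it.

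Shn, a large zinc-finger protein and cofactor of Mad and Med, is encoded by the gene with most summits among the members. The gene shn (FBgn0003396, chr2R:11159086-11217394, plus strand) held 7 IDR summits, and 1 protein-coding gene of the annotation held more. Of the 1700 protein-coding genes with an IDR summit, 84.9% had only 1. That share is not matched for length: 1199 of the 1700 genes were 10 kb or shorter, while shn is 58.3 kb long. The 7 regions had signals of 142.6, 134.2, 97.7, 92.0, 86.0, 85.9 and 81.1, with ranks from 472 to 1486. All of them lay in introns of the longest transcript, 1 in the first intron of 31126 bp and 6 in the second intron of 17848 bp. The 6 summits of the second intron spanned 9.45 kb, at intervals from 0.906 to 5.25 kb, and the remaining summit lay 10.3 kb upstream of them. At the members without shn there were 1.81 IDR summits per 100 kb (3 summits), at shn there were 11.8, and over all chromosome arms there were 1.19. The rates at genes cover gene bodies with 1 kb upstream, while the rate of the arms covers all sequence, that between genes included. Pooled regions of any strength, background included, were also denser at the 10 members, with 45.3 per 100 kb beside 22.4 over the arms.

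Both annotated starts inside that second intron had an IDR summit a short way upstream. The summit at 11204275 (chr2R:11204057-11204492, signal 92.0) lay 354 bp upstream of one start and that at 11197912 (chr2R:11197694-11198129, signal 85.9) lay 364 bp upstream of the other. The strongest region, chr2R:11194611-11195046, lay 3447 bp upstream of the nearest start, and the next, chr2R:11195623-11196058, lay 2435 bp upstream. Of the members' 10 IDR summits, those at 11204275 and 11197912 were the only ones within 500 bp of any annotated start. Over all 1595 nuclear IDR summits 60.1% were that close. Of the members' 10 summits, 7 lay in shn and 9 lay in introns, so most of the summits compared came from a single long gene. The 3 outside shn also lay more than 500 bp from any start, at 3487 bp (sog), 7529 bp (Dad) and 757 bp (brk). They are too few to be read alone. Just outside the IDR set shn held 6 further pooled regions with a q value below 5%, led by chr2R:11201749-11202184 with a signal of 74.5 and rank 1769.

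**Figure D2:**
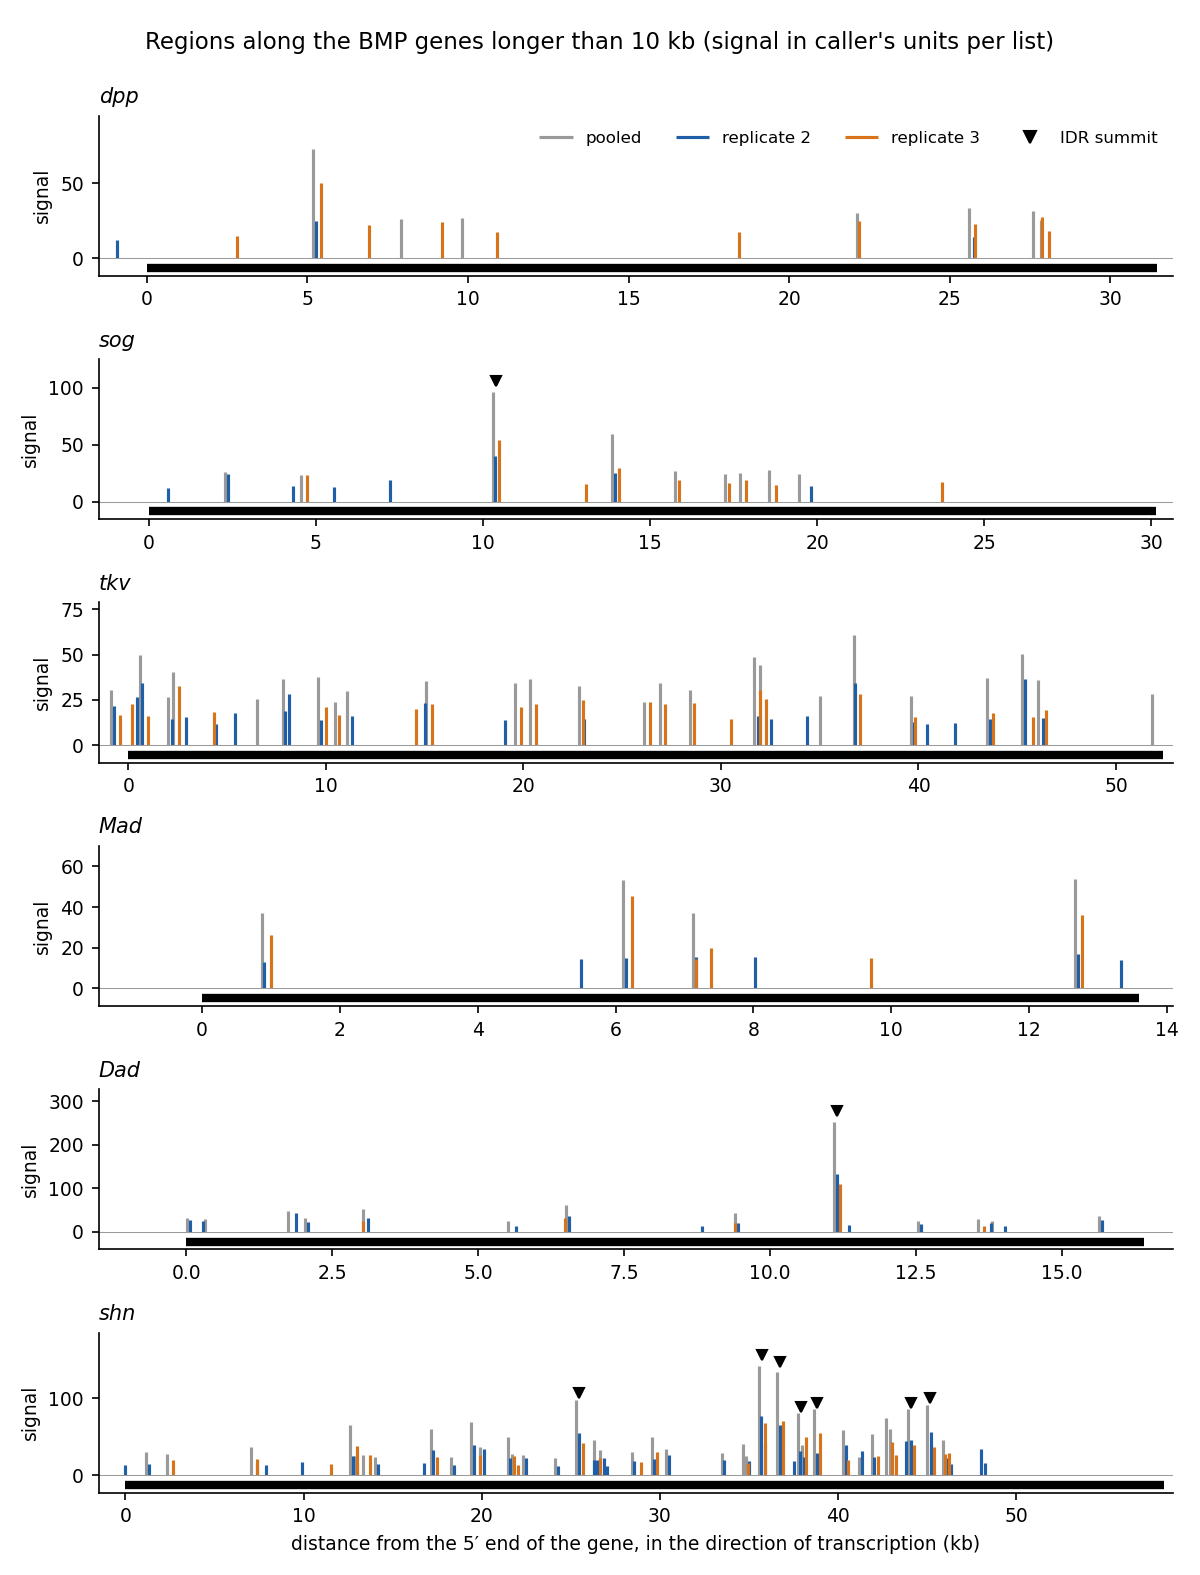
Regions along the 6 BMP genes longer than 10 kb, with distance from the 5′ end of the gene in kb on the x axis and the deposited signal of each list on the y axis. Grey, blue and orange lines stand for pooled, replicate 2 and replicate 3 regions, set slightly apart sideways so that all can be seen, black bars for gene bodies and triangles for IDR summits. In shn 6 of the 7 triangles fall within 9.45 kb, and in tkv there is none.

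The brk summit was the only IDR summit of a member outside a gene body. The gene brk (FBgn0024250, chrX:7307939-7311132, plus strand), whose product is the repressor of Dpp targets, had its IDR region at chrX:7306964-7307399 with a signal of 98.2 and rank 1012. The summit lay 757 bp upstream of the brk start, the nearest start of any gene, and also within the windows of CG1677 and lncRNA:CR44357. Replicate 2 ranked it 1050 with a signal of 54.0 and replicate 3 ranked it 1254 with a signal of 43.4. Both replicates thus listed it among their 1607 strongest regions.

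At sog the replicates differed more than at brk. The gene sog (FBgn0003463, chrX:15603283-15633434, minus strand) had its IDR region at chrX:15622835-15623270 in the second intron, 3487 bp downstream of the nearest start, with a signal of 96.4 and rank 1049. Replicate 2 ranked it 1893 with a signal of 40.5 and replicate 3 ranked it 741 with a signal of 54.3. Only replicate 3 therefore had sog among its 1607 strongest regions. In replicate 2 the region was not far below that limit, since the signal at rank 1607 there was 43.8, and its q value was 0.671%. A weaker pooled region in the same intron, 7068 bp downstream of that start, had a signal of 59.1 and rank 2954.

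The ligand gene dpp came close to the IDR set. The gene dpp (FBgn0000490, chr2L:2428372-2459823, plus strand) had its strongest pooled region at chr2L:2433437-2433872, in the first intron and 5283 bp downstream of the nearest start. Its signal was 73.1 at rank 1838, while the last region of the IDR set had 78.4 at rank 1607. Replicate 2 ranked it 6026 with a signal of 25.0 and a q value of 10.1%, and replicate 3 ranked it 879 with a signal of 50.4 and a q value of 0.398%. The site was thus among the strongest regions of replicate 3 and well outside those of replicate 2. The other 6 pooled regions of dpp had signals of 33.4 or less. The other ligand gene, gbb (FBgn0024234, chr2R:23851562-23853247, plus strand), had 1 pooled region with a signal of 34.1 and rank 12322, 2 regions in replicate 2 and none in replicate 3. The pooled summit lay 308 bp upstream of the gbb start and 181 bp upstream of that of ytr, the nearest. It also lay within the windows of ytr, eIF6 and asRNA:CR45928. An IDR region of rank 72 with a signal of 333.1 lay at chr2R:23850280-23850532, with its summit 1160 bp upstream of the gbb start and so outside the 1 kb limit. It lay 72 bp downstream of the start of asRNA:CR45928 and within the windows of ytr and eIF6.

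The type I receptor genes differed in length, 52.4 kb for tkv and 3.58 kb for sax, and in how many regions outside the IDR set they held. The gene tkv (FBgn0003716, chr2L:5219000-5271384, minus strand), almost as long as shn, held 25 pooled regions, 24 regions in replicate 2 and 23 in replicate 3, and no IDR summit. Its strongest pooled region, chr2L:5234290-5234725 in an intron, had a signal of 60.6 and rank 2769, with rank 2793 in replicate 2 and 4103 in replicate 3. The next, with a signal of 50.3, ranked 2394 in replicate 2 and had no replicate 3 summit within 250 bp. The one after, with a signal of 49.8, ranked 2819 in replicate 2 and 21927 in replicate 3. The strongest tkv region of replicate 3, at rank 2721, lay at another site, in the first intron. The gene sax (FBgn0003317, chr2R:7806484-7810067, plus strand) had no region in the pooled list or in replicate 3, and its 2 regions in replicate 2 ranked 20810 and 26492.

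The Smad genes Mad and Med, which encode the receptor-regulated and the common Smad, also lay outside the IDR set. At Mad (FBgn0011648, chr2L:3146056-3159643, minus strand) the strongest pooled regions had signals of 53.9 in the 3′ UTR and 53.3 in the first intron, at ranks 3688 and 3811. The intronic one, chr2L:3153270-3153705, ranked 18786 in replicate 2 with a signal of 15.2 and 1145 in replicate 3 with a signal of 45.4. That was the widest gap between replicates among the sites of dpp, tkv and Mad plotted, with the rank in replicate 2 16.4 times that in replicate 3. The region in the 3′ UTR ranked 14818 in replicate 2 and 2002 in replicate 3. At Med (FBgn0288966, chr3R:31611046-31615375, plus strand) the strongest pooled region had a signal of 54.3 and rank 3635. It lay 867 bp upstream of the Med start and 364 bp upstream of the start of CycG, the nearest gene.

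**Figure D3:**
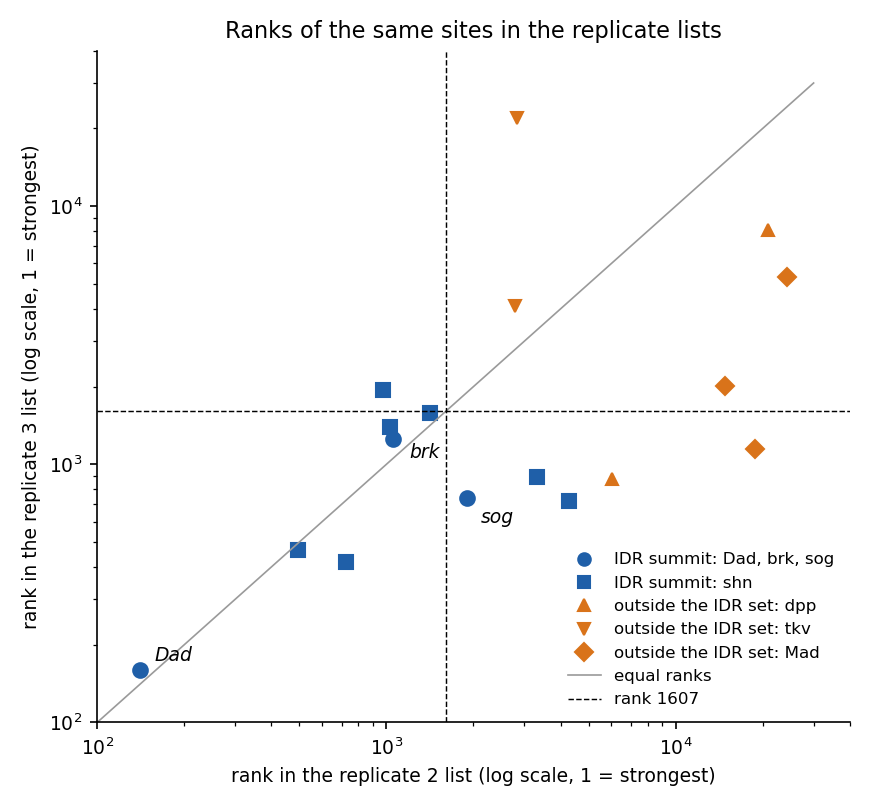
Rank of the same site in the replicate 2 list (x axis) and the replicate 3 list (y axis), both on log scales with 1 as the strongest, for the members' 10 IDR summits in blue and, of the 3 strongest pooled regions each of dpp, tkv and Mad, those with a summit of each replicate within 250 bp in orange. The grey line marks equal ranks and the dashed lines mark rank 1607. Dad lies close to the line at ranks 141 and 160, and the Mad points lie far to the right of it.

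Each of the 10 IDR summits at the members had a counterpart in both replicates at 250 bp or less, which is partly built in, since the IDR set was made from both replicates' lists. Their ranks in the replicates differed by a factor of 1.07 to 5.91, with a median of 1.53, beside a median of 1.58 over the 1547 nuclear IDR summits with both replicates nearby. Of the 10, 5 ranked better in replicate 2, beside 44.7% (692 of 1547) of the nuclear IDR summits. The widest gap was at the shn summit at 11197912, which ranked 4267 in replicate 2 with a signal of 28.6 and 722 in replicate 3 with a signal of 55.2. The neighbouring summit at 11197006 ranked 3328 in replicate 2 and 890 in replicate 3. The summit at 11204275 went the other way, with rank 975 in replicate 2 and 1937 in replicate 3. In all, 6 of the 10 were among the 1607 strongest regions of both replicates, 1 of replicate 2 only and 3 of replicate 3 only. Over the 1547 nuclear summits 65.0% were among the strongest of both.

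The replicates gave different sets of members when each was read alone. Among the 1607 strongest regions of replicate 2, 3 members had a summit (Dad, shn and brk), beside 12.6% of all protein-coding genes. Among those of replicate 3, 6 members had one (the same 3 with sog, dpp and Mad), beside 11.8%. At a q value below 5%, 6 members had a region in the pooled list, beside 19.6% of protein-coding genes. At that threshold 6 members had one in replicate 2, beside 25.9%, and 6 in replicate 3, beside 13.9%. In replicate 2 these included tkv with 4 regions and Med with 1, and in replicate 3 they included dpp with 1 and Mad with 2. Counting any region, 9 members had one in the pooled list, beside 55.9%, 10 in replicate 2, beside 61.4%, and 8 in replicate 3, beside 55.6%.

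Of 28 other genes that act in or on the pathway, 6 had an IDR summit, to be read beside the 12.2% of all protein-coding genes. By length, 5 of the 14 over 10 kb had one, beside 25.3%, and 1 of the 14 shorter genes, beside 10%. Among the 1607 strongest regions of replicate 2 alone 5 of the 28 had a summit, beside 12.6%, and among those of replicate 3 alone 10 had one, beside 11.8%. The 6 genes with an IDR summit were wit, cv-2, magu, nmo, dally and dlp. The type II receptor gene wit held 2 summits, and cv-2, which encodes an extracellular BMP-binding protein, held 2. The gene magu, which encodes an extracellular modulator of Dpp spread, held 1. The kinase gene nmo held 1, and the glypican genes dally and dlp held 1 and 3. Signals of the IDR summits at these 6 genes ran from 80.4 at wit to 129.0 at dlp. The stronger wit summit, 888 bp downstream of its start, had a signal of 91.7, ranked 693 in replicate 2 and had no replicate 3 summit within 250 bp. The other wit summit, 571 bp downstream of the start, ranked 1922 in replicate 2 and 1680 in replicate 3, just past rank 1607 in the list of replicate 3. The type II receptor gene put, the ligand genes scw, mav, daw and Actbeta, and Smox, the Smad gene of the activin branch, had no IDR summit. Of 18 genes known to respond to Dpp, 1 had an IDR summit, beside the 12.2% of all protein-coding genes. Split at 10 kb, it was 1 of the 9 longer genes, beside 25.3%, and 0 of the 9 shorter ones, beside 10%. The gene with one was ush, with 3 summits in the first intron. The strongest, with a signal of 967.5, and the next, with 192.2, lay closer to the start of cbt than to any start of ush. The weakest, with 84.5, lay nearest to a ush start.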

How the data were processed

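Regions came from the deposited dm6 lists. Per the file records, replicate and pooled lists were made against a control alignment, and the IDR set was made from the pooled list and both replicate lists. None of the sources used here names the caller, the aligner or the IDR threshold. Column 7 is the signal that the authors deposited, on each list's own scale, and column 9 their −log10 q value. Regions were ranked by signal within each list, mitochondrial ones included. A summit is column 2 + column 10 + 1, so that coordinates are 1-based. Genes came from Ensembl release 115 (BDGP6.54), leaving out transposable elements, and sequence from RefSeq. No region ran past the end of its arm.

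A summit counted for a gene when it lay in the body or within 1 kb upstream. Places were read over all transcripts and intron numbers from the longest one. For replicates alone, the 1607 strongest regions were used. The q threshold was 5%. Motifs were searched 50 bp either side of a summit. Counting used Python 3.11.15, numpy 2.4.6 and pandas 2.3.3 and was tested on simulated summits. No test was run, since there is 1 group. The members and lists were chosen with earlier results of these data known, and the split at 10 kb after the counts were seen. All members are named, and of the other BMP genes those with an IDR summit, with some lacking one named as examples. The dm3 lists were not used.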

Additional observations from a re-analysis of the deposited data

How the results depend on the processing

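The 803 strongest regions of the IDR set left 2 members with 3 summits, 3 other BMP genes and 6.7% of protein-coding genes. Pooled regions with a q value below 5% gave 20 summits at the members, 18 other BMP genes and 19.6% of protein-coding genes. The share of protein-coding genes was 5.33% with the gene body alone, 13.6% with 2 kb upstream and 9.39% by nearest start. Leaving out 1 replicate gave 3 to 6 members, 9 to 12 summits, 7 to 12 other BMP genes and 11.8 to 12.6% of protein-coding genes, with the higher counts of members, summits and other genes from replicate 3 alone. Without the 1 kb upstream brk was lost (3 members), with 2 kb gbb was added (5), and by nearest start Dad was lost (3). All 10 IDR summits at the members kept a summit of each replicate within 100 bp, within 500 bp, by overlap of 1 bp or more, and with a q value below 5% in both. No paired analysis was possible because there is 1 group. Depth is unknown, so no counting error can be given.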

Other observations

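Among the 46 other BMP genes, counted over both lists, the replicates named partly different genes. The strongest 1607 regions of replicate 2 reached 7 of them and those of replicate 3 reached 12, and 4 were in both (cv-2, magu, dlp and ush), which is 4 of 7 and 4 of 12. Over all protein-coding genes the regions of replicate 2 reached 1758 genes (12.6%) and those of replicate 3 reached 1643 (11.8%). Of these, 1210 were in both, which is 68.8% of the genes of replicate 2 and 73.6% of those of replicate 3. Replicate 2 alone had wit, whose best rank at an IDR summit in replicate 3 was 1680, CtBP, which encodes a co-repressor, and Ance, which encodes a peptidase. Replicate 3 alone had the receptor genes put and babo, the kinase gene nmo, the glypican gene dally, the Ski family gene Snoo, and cv, hiw and peb. These 11 genes were named after their values were seen. Whether library quality or depth differed between the replicates was not tested.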
